A study of Arabidopsis thaliana with 15 samples.

Results

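The wild-type response between 10 and 30 min after flg22 was described across genes from cap analysis of gene expression (CAGE), an assay in which the first bases of capped RNA molecules are sequenced and counted as tags. The members were the 6 wt libraries of the 15 in the series, chosen by genotype and time alone: 3 libraries at 10 min and 3 at 30 min. All were made from Arabidopsis thaliana ecotype Col-0 seedlings of 14 days that had spent their last 48 h in liquid MS medium and were then treated in the same wells with flg22 at 3.3 µM; flg22 is a short stretch of the flagellin protein of bacteria. Each library came from total RNA of a pool of 10 whole seedlings, and replicates were wells treated side by side, so p-values measure the spread between such wells. The other libraries, hen2-4 at 10 and 30 min and rrp4-2 at 30 min, received the same peptide and entered the fit to share an estimate of the spread. Both are lines with a weakened RNA exosome. No library without flg22 was used here. A change from 10 to 30 min can therefore not be told apart from a change that handling or the passing of time alone would bring, and the whole seedling mixes root and shoot, in which fewer cells of a type and less RNA per cell cannot be told apart.

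In Arabidopsis, flg22 is bound by the receptor kinase FLS2 with its partner BAK1, which starts a burst of reactive oxygen, an influx of calcium and cascades of MAP kinases. These reach transcription factors, among which the WRKY family binds a short promoter motif, the W-box. The response is known for the production of antimicrobial compounds made from indole and from phenylalanine, for the hormones salicylic acid, jasmonate and ethylene, and for a slowing of growth that auxin, brassinosteroids and gibberellins otherwise promote. Chaperones such as the heat shock proteins keep proteins folded in stress, and those of the endoplasmic reticulum fold secreted and membrane proteins, to which the pattern receptors belong.

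The wt libraries held 13.9 M to 24.1 M tags. Values are CPM, tag counts scaled to a common library total after TMM factors, listed below in the order of replicates 1, 2 and 3. The edgeR quasi-likelihood test called a gene where the adjusted p reached 0.05 or less and the log2 fold change from 10 to 30 min reached a size of 1; fold changes are fitted log2 values ± SE. Before any result, replicate 3 at 30 min has to be named as the library that stood apart. Its log2 CPM over genes correlated with replicates 1 and 2 at r = 0.959 and 0.961, against 0.979 between those 2, and results that rest on it are given with and without it.

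Of 18879 genes tested, 2112 were called (11.2%), of which 1426 were higher at 30 min (7.55% of the genes tested) and 686 lower (3.63%). The called-higher genes had a median log2 change of 1.74 and the called-lower genes one of -1.38. A change of at least 2 in size was reached by 556 genes called higher and 120 called lower, and one of at least 5 by 34 and 0, of which 5 had no tag in any 10-min library and so no exact fold. In 2035 of the called genes all 30-min libraries lay on the same side of all 10-min libraries, which was so in 32.6% of all genes tested. The split depended on the scaling: on library sizes alone, 1066 genes were called higher and 1446 lower, since that scaling shifted the log2 changes by a median of -0.26. Without replicate 3 at 30 min, 1308 genes were called higher and 656 lower.

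Processes were described through 44 gene lists with 1788 tested genes, which held 394 of the 2112 called genes. Lists are given by counts and medians, beside those over all genes tested, whose median log2 change was 0.01. Of 132 tested genes of pattern-triggered defence, 67 were called higher and 2 lower, with a median log2 change of 1.14. Genes of chaperones and the heat shock response came out much the same way, with 60 of 115 called higher, 2 lower and a median of 1.02. Transcription factors were divided, with 74 of 567 called higher and 56 lower. Of 333 hormone genes, 34 were called higher (10.2%) and 47 lower (14.1%), against 7.55% and 3.63% of all genes tested. The auxin-induced SAUR genes held 22 of the hormone genes called lower and 0 of those called higher. Among 499 genes of growth, photosynthesis, ribosomes and the clock, 12 were called higher and 15 lower. The 265 ribosomal genes among them held 0 of these calls. Without replicate 3 at 30 min these counts were 54 higher for defence, 54 for the heat shock group and 71 for the transcription factors, and 45 lower for the hormone genes.

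**Figure D1:**
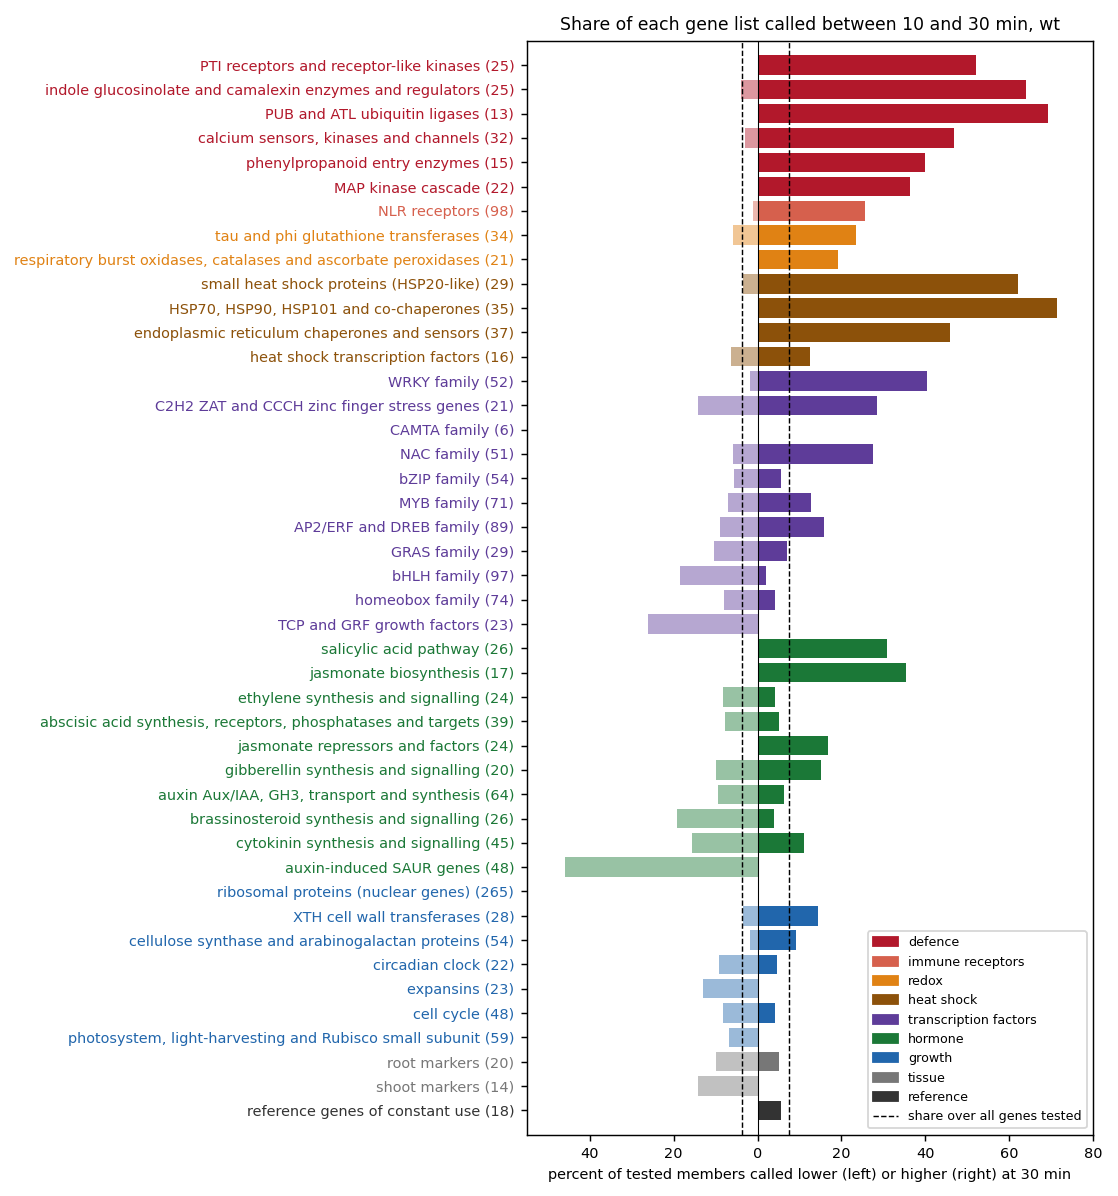
Percent of the tested members of each gene list called higher (bars to the right) or lower (paler bars to the left) at 30 min against 10 min in wt, with the number tested in brackets and dashed lines at the shares over all genes tested, 7.55% and 3.63%. The defence and chaperone lists reach farthest right, up to 71.4% for HSP70, HSP90, HSP101 and co-chaperones, and the SAUR genes farthest left, at 45.8%.

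Components that carry the flg22 signal were themselves higher at 30 min. Of 25 tested genes of pattern recognition, 13 were called higher and 0 lower, with a median log2 change of 1.76. The list held receptors, receptor-like kinases and partners, among them the oxidase RBOHD, which was called higher. SERK4 (AT2G13790, chr2:5741592-5746833), a co-receptor close to BAK1, had 40.6, 65.7 and 43.4 CPM at 10 min and 281, 318 and 398 CPM at 30 min, with no overlap between the groups (log2 change 2.73 ± 0.21, adjusted p = 2.61e-07). BAK1 itself (AT4G33430, chr4:16086311-16090832) had 48.3, 64.1 and 61.3 CPM at 10 min and 199, 131 and 178 CPM at 30 min (log2 change 1.55 ± 0.18, adjusted p = 1.73e-05). LYK4 and LYK5, parts of the chitin receptor, rose by log2 values of 2.65 ± 0.19 and 2.19 ± 0.25, so that kinases of a receptor for another microbial pattern were among those called. BIK1, the cytoplasmic kinase that relays the signal of FLS2, rose by 1.76 ± 0.28, and WAKL10, a wall-associated kinase, by 2.82 ± 0.23. FLS2 (AT5G46330, chr5:18791575-18795908), the receptor of the peptide, had 12.1, 18.24 and 15.5 CPM at 10 min and 27.3, 16.5 and 17 CPM at 30 min; its groups overlapped and it was not called (log2 change 0.41 ± 0.24, adjusted p = 0.248). Without replicate 3 at 30 min, 11 of the 25 were called higher and 1 lower, and the median was 1.05.

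Of 22 genes of the MAP kinase cascade, 8 were called higher and 0 lower. MPK3 (AT3G45640, chr3:16756571-16758874), a MAP kinase that flg22 activates, had 128, 119 and 81.3 CPM at 10 min and 489.7, 574 and 507 CPM at 30 min (log2 change 2.26 ± 0.20, adjusted p = 7.67e-07), all 30-min values lying above all 10-min values. MPK11 rose more, from 4.28, 5.58 and 3.31 to 39.4, 34.2 and 51.6 CPM (3.24 ± 0.29). Upstream kinases rose less: MKK4 by 1.29 ± 0.14 and MEKK1 by 1.13 ± 0.17. MKS1, a substrate of MPK4 that binds WRKY33, rose by 2.21 ± 0.18. The calls of MEKK1 here, and of CPK28, ERF6, NPR1 and HSFB2A below, were lost on library sizes alone, and those of MEKK1 and HSFB2A also without replicate 1 at 30 min, of ERF6 without replicate 3 at 10 min and of NPR1 without replicate 1 at 10 min.

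Calcium sensors, kinases and channels numbered 32 tested genes, with 15 called higher and 1 lower (11 and 1 without replicate 3 at 30 min). The calmodulin-like gene TCH3 (AT2G41100, chr2:17137037-17139700) had 214, 246 and 192 CPM at 10 min and 1389, 1382 and 1165 CPM at 30 min (log2 change 2.59 ± 0.16, adjusted p = 4.65e-08). Another calmodulin-like gene, CML42, rose by 2.55 ± 0.27, and AT3G22910, annotated as a P-type ATPase and known as a calcium pump, by 2.67 ± 0.30. CPK28, a kinase that limits the amount of BIK1, rose by 1.23 ± 0.18, whereas CPK5, which acts on the oxidase RBOHD, had 77.7, 110.3 and 80.9 CPM at 10 min and 151, 71.4 and 101 CPM at 30 min, which overlapped.

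Among 13 ubiquitin ligases of the PUB and ATL families, which mark proteins for degradation and in part restrain the pattern response, 9 were called higher and 0 lower. Without replicate 3 at 30 min these counts were 7 and 0. PUB24 (AT3G11840, chr3:3736578-3738208) had 15.8, 21.3 and 14.4 CPM at 10 min and 175, 133 and 298 CPM at 30 min (log2 change 3.56 ± 0.29, adjusted p = 5.08e-07), and PUB23 rose by 1.961 ± 0.23, PUB12 by 1.76 ± 0.19 and CNI1, also called ATL31, by 2.77 ± 0.27. PUB22, which acts with PUB23 and PUB24, had 16.8, 17 and 12.4 CPM at 10 min and 28.4, 13.2 and 29.3 CPM at 30 min and was not called. Negative regulators of the response were thus among the genes called higher, as were receptor-like kinases of pattern recognition, though not FLS2.

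Antimicrobial metabolism gave the second-largest share called higher among the defence lists, 16 of 25 tested genes of indole glucosinolate and camalexin metabolism, with 1 lower and a median log2 change of 1.42. Without replicate 3 at 30 min 12 were called higher and 1 lower, and the median was 1.14. CYP81F2 (AT5G57220, chr5:23187840-23189902), which hydroxylates the indole glucosinolate, had 16.7, 13.7 and 14.8 CPM at 10 min and 261, 286 and 316 CPM at 30 min (log2 change 4.25 ± 0.23, adjusted p = 9.28e-09). IGMT2 (AT1G21120, chr1:7395179-7396823), a methyltransferase that acts on its product, had 0.555, 1.45 and 0.324 CPM at 10 min and 28.6, 27.2 and 26.2 CPM at 30 min, the largest rise in the list (log2 change 5.08 ± 0.35, adjusted p = 9.57e-08). PEN2, the myrosinase that activates such glucosinolates, went from 135, 219 and 191 to 1409, 870.2 and 1639.7 CPM (2.85 ± 0.25). CYP71A12, of the indole-3-carbonylnitrile and camalexin branch, rose by 3.11 ± 0.35, and PAD3, which makes camalexin, by 3.16 ± 1.01. PAD3 had 0.278, 0.635 and 0.389 CPM at 10 min and 1.94, 1.1 and 8.71 CPM at 30 min; replicate 3 at 30 min held most of the level, and the call was lost without it and without any 1 of the 10-min libraries. The regulator MYB51 rose (1.48 ± 0.16), while MYB34, another regulator of indole glucosinolates, was the member called lower (15.1, 11.5 and 9.86 CPM at 10 min and 5.81, 4.25 and 3.58 CPM at 30 min, log2 change -1.42 ± 0.24, adjusted p = 0.0005).

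Entry enzymes of phenylpropanoid metabolism, which leads to lignin and to antimicrobial phenolics, had 6 of 15 tested members called higher and 0 lower. CCR2 (AT1G80820, chr1:30370474-30372799), a cinnamoyl-CoA reductase known for its place in defence lignin, had 16.3, 14.7 and 11.7 CPM at 10 min and 181, 103 and 203 CPM at 30 min (log2 change 3.51 ± 0.25, adjusted p = 1.45e-07). PAL1 and PAL2, which take phenylalanine into the pathway, rose by 1.45 ± 0.21 and 1.39 ± 0.24, and 4CL1 by 1.64 ± 0.18.

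Intracellular immune receptors of the NLR class had smaller changes in many members. Of 98 tested, 25 were called higher and 1 lower (3 lower without replicate 3 at 30 min), the median log2 change was 0.50, and in 49 members every 30-min library lay above every 10-min library, against 17.1% of all genes tested. AT5G58120 (chr5:23517256-23521067), a TIR-type NLR, had 8.09, 8.35 and 6.94 CPM at 10 min and 35.4, 29.5 and 33.9 CPM at 30 min (log2 change 2.08 ± 0.15, adjusted p = 1.76e-07). RPM1, an NLR that guards RIN4 against bacterial effectors, rose by 1.78 ± 0.18, and AT4G11170, another of the TIR type, by 3.31 ± 0.46. SNC1 was higher in all 30-min libraries, with 27.8, 29.6 and 37.1 CPM at 10 min and 57.8, 37.2 and 45.1 CPM at 30 min, but its log2 change of 0.57 ± 0.18 stayed under the limit. The member called lower, AT5G43740 of the coiled-coil type, was close to the limit (-1.02 ± 0.28) and lost the call without replicate 3 at 10 min, replicate 2 at 30 min or replicate 3 at 30 min.

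In the redox group, RBOHD (AT5G47910, chr5:19397041-19402061), the NADPH oxidase of the flg22 burst, had 45.4, 62.8 and 42.3 CPM at 10 min and 112, 123 and 126 CPM at 30 min (log2 change 1.27 ± 0.22, adjusted p = 0.000756). The list of oxidases, catalases and ascorbate peroxidases had 4 of 21 members called higher and 0 lower. RBOHD was counted both here and among the genes of pattern recognition. CAT2, the main leaf catalase, had 743, 677 and 683 CPM at 10 min and 491, 425 and 309.6 CPM at 30 min, every 30-min value below every 10-min value, at a log2 change of -0.78 ± 0.23 that was under the limit. Glutathione transferases, which conjugate reactive compounds, had 8 of 34 called higher and 2 lower, led by GSTU12 with 0.635, 0.726 and 0.324 CPM at 10 min and 32.2, 45.9 and 52.7 CPM at 30 min (log2 change 6.21 ± 0.34, adjusted p = 1.15e-08) and GSTU5 (3.06 ± 0.30).

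**Figure D2:**
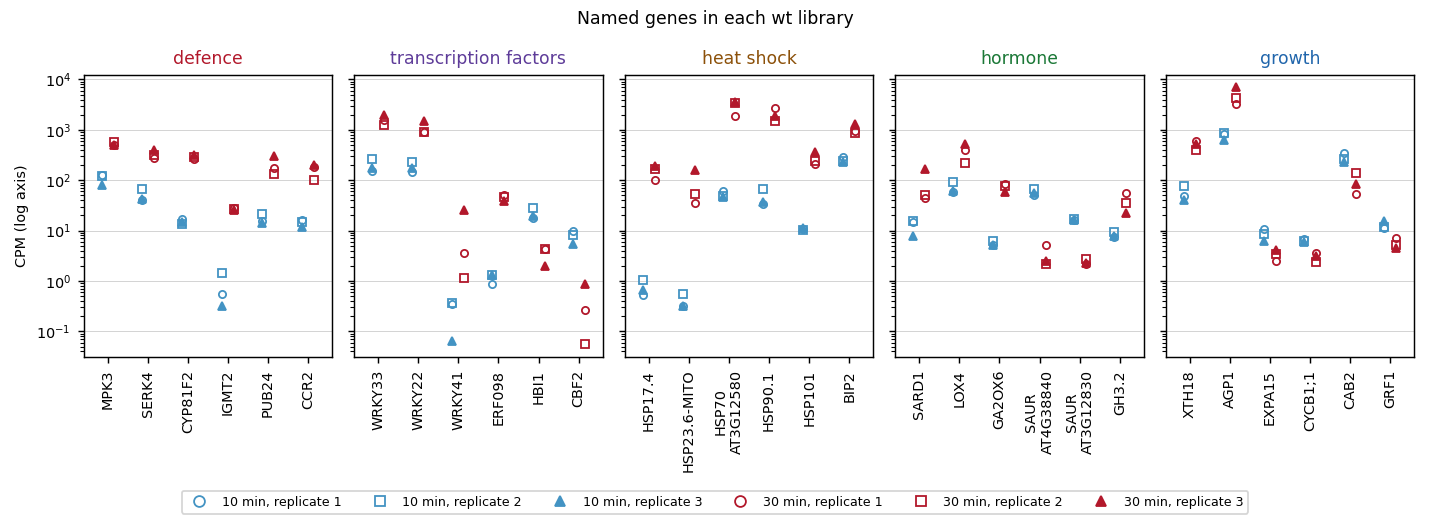
CPM on a log axis of named genes of 5 processes in each of the 6 wt libraries, blue for 10 min and red for 30 min, with replicates by symbol and replicate 3 filled. In most genes drawn the red and blue points are clear of each other, and WRKY41 and HSP23.6-MITO show the distance of replicate 3 at 30 min, at 25.2 and 162 CPM, from the other replicates.

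The WRKY family had the largest share of members called higher among the transcription factor lists, 21 of 52 tested, with 1 lower and a median log2 change of 0.85. WRKY33 (AT2G38470, chr2:16108235-16110766), the regulator of camalexin genes, had 153, 263 and 176 CPM at 10 min and 1581, 1222 and 1944 CPM at 30 min (log2 change 3.00 ± 0.26, adjusted p = 9.04e-07). WRKY22 had 146, 232 and 176 CPM at 10 min and 909.7, 887 and 1508 CPM at 30 min (2.58 ± 0.26), and WRKY29, which is placed beside it below MPK3 and MPK6, rose from lower levels (2.13 ± 0.48). WRKY6 and WRKY30 rose by 3.44 ± 0.31 and 4.09 ± 0.38. WRKY41 (AT4G11070, chr4:6759098-6760794) had 0.357, 0.363 and 0.0649 CPM at 10 min and 3.67, 1.16 and 25.2 CPM at 30 min; the groups did not overlap, but replicate 3 at 30 min held most of the level (log2 change 5.13 ± 0.96, adjusted p = 0.00122). WRKY49 was the member called lower, with 9.52, 8.53 and 10.8 CPM at 10 min and 0.785, 1.16 and 2.37 CPM at 30 min (log2 change -2.74 ± 0.51, adjusted p = 0.00117).

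Promoters of called genes were read for the motifs of these factors, over 300 bases from 250 before to 50 after the RefSeq start (build TAIR10.1). The W-box, spelled TTGACC or TTGACT on either strand, stood in 52.5% of 1413 windows of genes called higher, in 24.6% of 659 windows of genes called lower and in 33.2% of all 18593 windows. IGMT2 and WRKY41 are shown as genes of the indole and WRKY lists that rose and hold it, each by the 250 bases before its start with the W-box in capitals.
IGMT2 (chr1:7396824-7397073, minus strand): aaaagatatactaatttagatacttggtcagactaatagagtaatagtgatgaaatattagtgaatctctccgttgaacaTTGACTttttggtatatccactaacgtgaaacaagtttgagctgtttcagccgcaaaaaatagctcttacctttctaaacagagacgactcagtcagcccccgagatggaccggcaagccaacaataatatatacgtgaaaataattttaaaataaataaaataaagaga
WRKY41 (chr4:6758848-6759097, plus strand): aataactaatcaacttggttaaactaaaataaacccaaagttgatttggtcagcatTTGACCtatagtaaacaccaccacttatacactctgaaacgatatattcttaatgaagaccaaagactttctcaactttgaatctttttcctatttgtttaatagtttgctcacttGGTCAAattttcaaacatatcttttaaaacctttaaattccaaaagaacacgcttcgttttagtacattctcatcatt
The CAMTA box, CGCGTT, which is known as the site of calmodulin-binding CAMTA factors, stood in 8.07% of windows of genes called higher, 2.28% of those called lower and 3.83% of all. It is shown in capitals in the NLR gene AT5G58120.
AT5G58120 (chr5:23517006-23517255, plus strand): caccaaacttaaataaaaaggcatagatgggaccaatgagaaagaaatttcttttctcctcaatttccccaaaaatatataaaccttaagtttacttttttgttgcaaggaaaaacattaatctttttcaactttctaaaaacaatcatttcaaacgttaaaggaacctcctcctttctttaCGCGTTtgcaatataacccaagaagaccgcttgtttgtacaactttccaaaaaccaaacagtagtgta
The heat shock element, GAANNTTC, stood in 19.6%, 10.0% and 11.3% of these windows, and its extended form, the same letters followed by NN and GAA, in 1.77%, 0.15% and 0.53%. HSP17.4 carries the extended form in 2 places, of which the short form within each is in capitals.
HSP17.4 (chr3:16984868-16985117, minus strand): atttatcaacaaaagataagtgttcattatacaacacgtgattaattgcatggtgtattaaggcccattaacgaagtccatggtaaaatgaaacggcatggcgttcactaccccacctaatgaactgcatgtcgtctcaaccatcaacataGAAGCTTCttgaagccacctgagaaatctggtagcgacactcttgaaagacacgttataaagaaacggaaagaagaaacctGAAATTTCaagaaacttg
The TATA box, TATAAA, stood in 55.0% of windows of genes called higher, 54.2% of those called lower and 51.9% of all, and the DRE core, CCGAC, in 15.9%, 15.6% and 16.3%. Motifs were searched on both strands, and a match may overlap that of another motif. The auxin element TGTCTC stood in 15.6% of windows of genes called lower and 13.6% of all, and the TELO box AAACCCTA in 2.19% of windows of genes called higher and 5.62% of all. A motif is a match of letters and not a shown binding site.

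**Figure D3:**
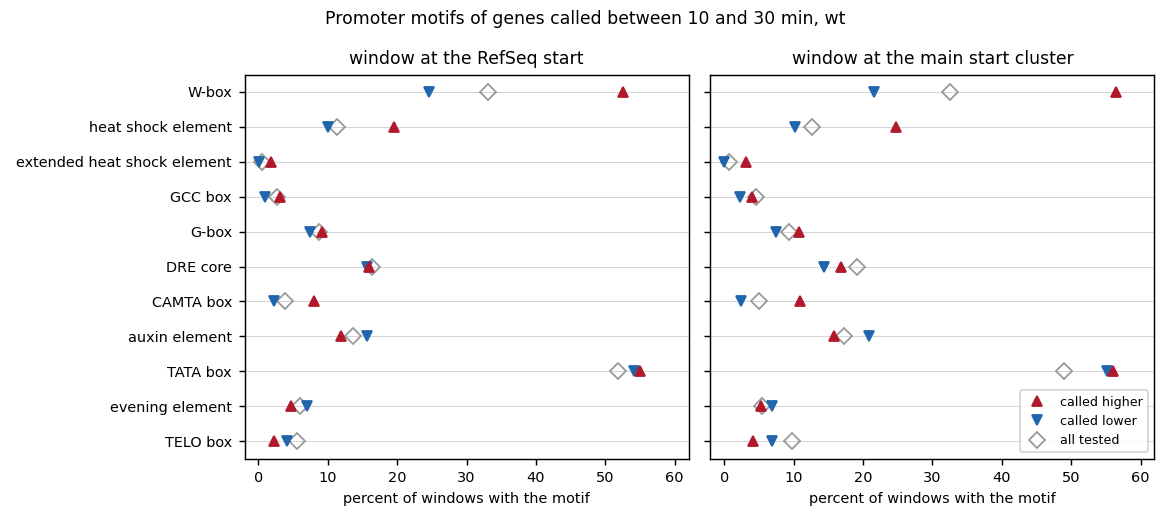
Percent of promoter windows that hold each motif among genes called higher (red), called lower (blue) and all tested (open), for windows at the RefSeq start (left) and at the midpoint of each gene's main CAGE start cluster (right). The W-box share of genes called higher is 52.5% on the left and 56.4% on the right, against 33.2% and 32.6% of all windows.

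CAGE itself marks where transcription starts, and the midpoint of a gene's main start cluster lay a median of 97 bases downstream of its RefSeq start (quartiles 51 and 170, 18571 genes). With windows set at that midpoint, a choice made after this distance was seen, the W-box stood in 52% of the indole and 48.1% of the WRKY list. Its shares were 56.4% for genes called higher, 21.6% for those called lower and 32.6% for all. The heat shock element then stood in 24.8%, 10.2% and 12.7%, and in the small heat shock protein list its count rose from 7 to 15 of 29 members. The genes called differed from the rest in structure as well. Those called higher had a median of 2 introns and those called lower 1, against 4 over all, and 24.5% and 32.0% of them had no intron, against 14.2%.

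Outside the WRKY family, transcription factors were called in both directions. Of 89 tested AP2/ERF genes, 14 were called higher and 8 lower; without replicate 3 at 30 min these were 17 and 15. TDR1, also called ERF098 (AT3G23230, chr3:8289379-8290164), had 0.872, 1.32 and 1.3 CPM at 10 min and 50.8, 45.6 and 39.4 CPM at 30 min (log2 change 5.29 ± 0.24, adjusted p = 3.37e-09), and AT1G71520, annotated in the same family, went from 1.39, 2.5 and 1.69 to 152, 82.6 and 137 CPM (6.05 ± 0.31). ERF15 rose by 3.89 ± 0.30 and ERF6, a substrate of MPK3 and MPK6, by 1.101 ± 0.23. CBF2 (AT4G25470, chr4:13015250-13016235), known from the cold response, fell, with 9.64, 8.35 and 5.32 CPM at 10 min and 0.262, 0.0552 and 0.882 CPM at 30 min (log2 change -4.27 ± 0.55, adjusted p = 4.54e-05). ERF104, another MAP kinase substrate, had 52, 70.5 and 57 CPM at 10 min and 33.9, 22.9 and 40.2 CPM at 30 min, all 30-min values lower, at a log2 change of -0.89 ± 0.22, under the limit.

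The NAC family had 14 of 51 tested members called higher and 3 lower (10 and 2 without replicate 3 at 30 min). NAC036 had 9.16, 8.98 and 6.81 CPM at 10 min and 45.9, 59 and 151 CPM at 30 min (3.35 ± 0.40), and NAC3, also called ANAC055 and known from jasmonate signalling, rose by 2.21 ± 0.31. AT3G12910 (chr3:4109375-4110849), annotated with a NAC domain but held by no list, had 1.11, 1.32 and 1.36 CPM at 10 min and 145, 122 and 208 CPM at 30 min (log2 change 6.98 ± 0.27, adjusted p = 1.24e-09). On library sizes alone 8 NAC genes were called higher, and 8 also without replicate 1 at 10 min; the count called lower was 0 without replicate 1 at 30 min and 1 without replicate 3 at 10 min or replicate 2 at 30 min. Of 71 MYB genes, 9 were called higher and 5 lower, MYB15, a regulator of defence lignin, rising by 2.64 ± 0.54, while AS1, known from leaf development, fell by 1.56. Stress zinc fingers of the ZAT and CCCH groups had 6 of 21 called higher and 3 lower, with ZAT11 at 2.89 ± 0.42, CZF1 at 2.32 ± 0.22 and SZF1 at 2.14 ± 0.24.

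In families known for growth and development, more genes were called lower than higher. Of 97 bHLH genes, 18 were called lower and 2 higher, with a median log2 change of -0.33. HBI1 (AT2G18300, chr2:7952404-7954785), a bHLH factor that promotes cell elongation and restrains the flg22 response, had 18, 28.2 and 19.1 CPM at 10 min and 4.24, 4.25 and 1.99 CPM at 30 min (log2 change -2.64 ± 0.33, adjusted p = 3.13e-05). BEE1 and BEE2, related factors of the brassinosteroid response, had log2 changes of -1.75 and -1.51, and PIF4 had 52.4, 41 and 55.3 CPM at 10 min and 32, 51.7 and 31.2 CPM at 30 min, which overlapped. TCP and GRF factors, which control leaf growth, had 6 of 23 called lower, 0 higher and a median of -0.80, and in 16 of the 23 all 30-min libraries lay below all 10-min libraries, against 15.5% of all genes tested. TCP3 had 24.9, 30.7 and 34.9 CPM at 10 min and 15.2, 12.3 and 6.45 CPM at 30 min (log2 change -1.41 ± 0.24, adjusted p = 0.000566), and GRF1 had a log2 change of -1.20 ± 0.26. Homeobox genes had 6 of 74 called lower, 3 higher and a median of -0.48. On library sizes alone 25 bHLH, 12 TCP or GRF and 13 homeobox genes were called lower.

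Small heat shock proteins had the largest median change of the 44 lists. Of 29 tested genes of the HSP20-like superfamily, which holds the small heat shock proteins, 18 were called higher and 1 lower, with a median log2 change of 2.56 and called-higher values from 1.30 to 8.25. HSP17.4 (AT3G46230, chr3:16984118-16984867), a cytosolic small heat shock protein that holds unfolding proteins, had 0.516, 1.04 and 0.649 CPM at 10 min and 99.96, 168 and 193 CPM at 30 min (log2 change 7.69 ± 0.75, adjusted p = 2.42e-06). HSP17.6II and HSP17.6A went from 1.35, 2.72 and 2.21 and from 1.59, 3.58 and 2.47 CPM to 323, 461 and 1117 and to 264, 609 and 1039 CPM; the deposited counts leave out tags with more than 1 match in the genome, and with them near-identical stretches of such neighbours. HSP23.6-MITO (AT4G25200, chr4:12916926-12918110), of the mitochondrion, had 0.317, 0.544 and 0.324 CPM at 10 min and 36, 52.3 and 162 CPM at 30 min (log2 change 7.69 ± 0.77, adjusted p = 3.46e-06). HSP21, of the chloroplast, had no tag in any 10-min library and 3, 14 and 85 tags at 30 min. Pooled over each group, with a floor of 3 tags at 10 min, this gave a bound of 38.5-fold, which rested mostly on replicate 3. With HSP21 at that bound the median of the list was the same. HSP18.2 had 8.57, 8.17 and 5.39 CPM at 10 min and 10.5, 16.9 and 133 CPM at 30 min (log2 change 2.85 ± 0.73): replicate 3 held most of it, and the call was lost without that library or without replicate 3 at 10 min. The member called lower, AT5G02480, is annotated only as HSP20-like (-1.66 ± 0.26).

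The larger chaperones rose together with them. Of 35 tested genes of HSP70, HSP90, HSP101 and co-chaperones, 25 were called higher and 0 lower, with a median log2 change of 1.73. Among the 25 were DREB2A and MBF1C, regulators of transcription that are not chaperones. In 30 of the 35 all 30-min libraries lay above all 10-min libraries, against 17.1% of all genes tested, and in 0 below. The inducible HSP70 gene AT3G12580 (chr3:3991117-3993886) had 61, 47.6 and 46 CPM at 10 min and 1912, 3354 and 3651 CPM at 30 min (log2 change 5.85 ± 0.27, adjusted p = 3.38e-09). HSP90.1 had 33.7, 66.1 and 37.3 CPM at 10 min and 2734, 1467 and 1889.5 CPM at 30 min (5.47 ± 0.51), and HSP101, a disaggregase that acts with the small heat shock proteins, had 10.5, 10.3 and 11.3 CPM at 10 min and 205, 238 and 359 CPM at 30 min (4.64 ± 0.28). AT5G48570, a peptidyl-prolyl isomerase that binds HSP90, rose by 5.08 ± 0.36. Without replicate 3 at 30 min, 17 genes of the small and 23 of the larger chaperone list were called higher, and the medians were 1.92 and 1.33.

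Few of the heat shock transcription factors, which drive such genes, were called. Of 16 tested heat shock transcription factors, 2 were called higher and 1 lower; their median log2 change was 0.12, and -0.13 on library sizes alone. HSFA2 (AT2G26150, chr2:11135624-11137792), the factor that prolongs the heat response, had 0.991, 0.499 and 0.584 CPM at 10 min and 13.9, 21.1 and 60.9 CPM at 30 min (log2 change 5.49 ± 0.52, adjusted p = 2.01e-06), and HSFB2A rose by 1.21 ± 0.27. HSFA7A had 4.88, 4.72 and 6.42 CPM at 10 min and 7.02, 6.24 and 9.15 CPM at 30 min, which overlapped. The regulators DREB2A and MBF1C, counted above with the larger chaperones, rose by 1.26 ± 0.20 and 2.96 ± 0.33. In the endoplasmic reticulum, 17 of 37 chaperone and sensor genes were called higher and 0 lower (13 and 0 without replicate 3 at 30 min). In 26 of the 37 all 30-min libraries lay above all 10-min libraries, against 17.1% of all genes tested, and in 0 below. BIP2 (AT5G42020, chr5:16807342-16810693), the main HSP70 of that compartment, had 283, 240.0 and 225 CPM at 10 min and 945, 847 and 1283 CPM at 30 min (log2 change 2.04 ± 0.21, adjusted p = 3.93e-06), ERO1, an oxidase for disulfide bonds, rose by 2.55 ± 0.23, and bZIP60, the factor of the unfolded protein response, by 2.01 ± 0.34.

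**Figure D4:**
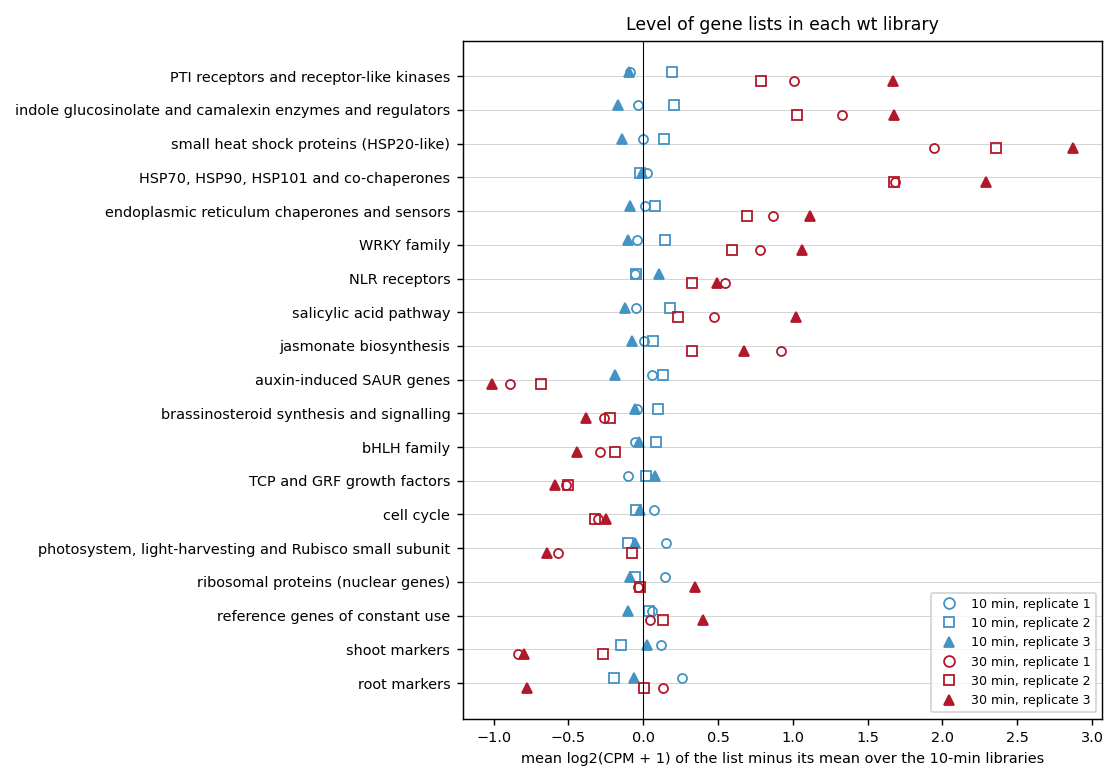
Level of 19 gene lists in each wt library, as the mean log2(CPM + 1) of the tested members minus the list's mean over the 10-min libraries, in blue for 10 min and red for 30 min, with replicates by symbol and replicate 3 filled. Small heat shock proteins lie farthest right and SAUR genes farthest left, and the root markers of replicate 3 at 30 min lie left of all other libraries.

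Hormone genes divided by hormone. For salicylic acid, the hormone of defence against biotrophic microbes, 8 of 26 tested genes were called higher and 0 lower. SARD1 (AT1G73805, chr1:27744790-27749248), a factor that turns on salicylic acid synthesis, had 14.6, 15.7 and 7.92 CPM at 10 min and 45, 51.6 and 164 CPM at 30 min (log2 change 2.76 ± 0.43, adjusted p = 0.000255). The receptor NPR1 had 8.72, 12.3 and 11.6 CPM at 10 min and 26.1, 20.8 and 22.9 CPM at 30 min (1.099 ± 0.17) and the transporter EDS5 rose by 1.39 ± 0.33. EDS16, the isochorismate synthase of the pathway, had 9.12, 7.53 and 8.63 CPM at 10 min and 6.07, 6.51 and 7.22 CPM at 30 min, all 30-min values lower, at a log2 change of -0.35 ± 0.16 that was not called. PR1, the usual marker of the hormone, had 2.7, 3.49 and 0.779 CPM at 10 min and 2.67, 0.994 and 49.6 CPM at 30 min: only replicate 3 at 30 min was high, and the gene was not called. The list rested in part on that library: without it 4 members were called higher, and 5 without replicate 3 at 10 min.

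For jasmonate, the wound hormone, 6 of 17 biosynthesis genes were called higher and 0 lower, and 4 and 1 without replicate 3 at 30 min. LOX4 (AT1G72520, chr1:27308513-27312756), a lipoxygenase of the first step, had 57.8, 94 and 60.6 CPM at 10 min and 391, 219 and 521 CPM at 30 min (log2 change 2.41 ± 0.32, adjusted p = 5.6e-05), and AOC1, AOC3 and OPR3, later enzymes, rose by 2.53 ± 0.41, 1.95 ± 0.37 and 1.47 ± 0.21. Of the JAZ repressors and the factors they bind, 4 of 24 were called higher and 0 lower, with a median log2 change of -0.06, among them JAZ1 with 359, 327 and 239 CPM at 10 min and 1007, 599.8 and 688 CPM at 30 min (1.31 ± 0.21) and JAZ5 (1.64 ± 0.28). MYC2, the main factor, had 64.4, 52.5 and 58 CPM at 10 min and 47.4, 48.6 and 49.7 CPM at 30 min, all 30-min values lower, and was not called. For ethylene 1 of 24 genes was called higher and 2 lower, and 5 lower without replicate 1 at 30 min. The 1, ACS7, of ethylene synthesis, had 35.1, 42 and 30.7 CPM at 10 min and 45.4, 36.6 and 321 CPM at 30 min (log2 change 1.90 ± 0.63); its groups overlapped and the call was lost on library sizes alone, without replicate 3 at 30 min and without any 1 of the 10-min libraries. ACS6, the synthase that MPK3 and MPK6 stabilise, had 69, 71.5 and 78.1 CPM at 10 min and 143, 88.3 and 135 CPM at 30 min, all 30-min values higher, at a log2 change of 0.75 ± 0.24 and not called.

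Of all lists, the SAUR genes had the largest share called lower. SAUR genes, a family that auxin induces and that promotes cell expansion, had 22 of 48 tested members called lower, 0 higher and a median log2 change of -1.26. In 29 members all 30-min libraries lay below all 10-min libraries, against 15.5% of all genes tested. AT4G38840 (chr4:18124978-18125559) had 51.8, 67.9 and 56.5 CPM at 10 min and 5.08, 2.15 and 2.48 CPM at 30 min (log2 change -4.17 ± 0.56, adjusted p = 6.52e-05), and its neighbour AT4G38860 had 13.5, 13.1 and 10.12 CPM at 10 min and 0.471, 1.93 and 0.551 CPM at 30 min (-3.64 ± 0.47). AT3G12830, on another chromosome, had 15.9, 16.8 and 16.2 CPM at 10 min and 2.15, 2.76 and 2.26 CPM at 30 min (-2.77 ± 0.26). Members stand in clusters of near copies, of which reads that map more than once are not counted. The other auxin genes were mixed, with 4 of 64 called higher and 6 lower. IAA29 and SHY2 (IAA3), repressors of the Aux/IAA family, had log2 changes of -2.89 and -2.13, while BRU6 (GH3.2), which conjugates auxin to amino acids and so takes it out of use, rose with 7.57, 9.44 and 7.85 CPM at 10 min and 56.9, 36 and 22.8 CPM at 30 min (2.22 ± 0.28) and DFL2 (GH3.10) fell by 2.09.

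In the gibberellin, brassinosteroid and cytokinin lists, 35%, 34.6% and 31.1% of members had all 30-min libraries below all 10-min libraries. Over all genes tested this share was 15.5%. All 30-min libraries lay above all 10-min libraries in 15%, 11.5% and 11.1%, against 17.1% over all. GA2OX6 (AT1G02400, chr1:486800-489651), which inactivates gibberellin, had 5.23, 6.12 and 5.13 CPM at 10 min and 82.5, 75.3 and 59.7 CPM at 30 min (log2 change 3.72 ± 0.18, adjusted p = 4.07e-09), and GAI, a DELLA repressor of gibberellin responses, had 45.5, 52.2 and 50.4 CPM at 10 min and 12, 15.2 and 11.2 CPM at 30 min, a log2 change of -1.95. Of 20 gibberellin genes, 3 were called higher and 2 lower; 1 was called higher without replicate 1 at 10 min, 4 were called lower without replicate 1 at 30 min, and library sizes alone gave 1 higher and 4 lower. Brassinosteroid genes had 5 of 26 called lower and 1 higher; the genes that fell were BEE1, BEE2 and the related bHLH factors KDR and PRE1, and BKI1 (-1.16 ± 0.19), an inhibitor of the receptor. The receptor BRI1 had 9.2, 16.2 and 16.3 CPM at 10 min and 16.7, 6.79 and 6.95 CPM at 30 min, which overlapped. Cytokinin genes had 7 of 45 called lower and 5 higher, with the response regulator ARR4 at -1.23 ± 0.14 and the activating enzyme LOG1 at 1.23 ± 0.26; the count called higher was 2 or 3 in 8 of the 12 alternative fits. For abscisic acid, the drought hormone, 2 of 39 were called higher and 3 lower (1 lower without replicate 3 at 10 min), with the receptor PYL6 at -1.60 ± 0.26, the epoxidase ABA1 at -1.12 ± 0.21 (not called without replicate 3 at 10 min) and the responsive gene LTI78 (RD29A) at 1.52 ± 0.30.

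The growth lists held 12 calls higher (2.40%) and 15 lower (3.01%) in 499 tested, against 7.55% and 3.63% over all genes tested. The 265 ribosomal genes among them held 0. Expansins, which loosen the wall, had 3 of 23 called lower (1 without replicate 2 at 30 min) and 0 higher: EXPA15 had 10.5, 8.53 and 6.36 CPM at 10 min and 2.46, 3.37 and 4.08 CPM at 30 min (-1.36 ± 0.29), EXPA8 -1.86 ± 0.54 and EXPA5 -1.02 ± 0.27, of which EXPA8 lost the call without replicate 2 at 10 min or replicates 2 or 3 at 30 min and EXPA5 without replicate 1 at either time or replicate 2 at 30 min. XTH enzymes, which cut and rejoin xyloglucan, had 4 of 28 called higher (14.3%) and 1 lower (3.57%), with a median log2 change of -0.07. The count called lower was 3 without replicate 1 at 30 min and 4 on library sizes alone. The genes called higher included XTH18, with 49.2, 78 and 39.8 CPM at 10 min and 608, 396 and 523 CPM at 30 min (log2 change 3.19 ± 0.28, adjusted p = 7.67e-07) and TCH4 (XTH22), with 472, 426 and 294 CPM at 10 min and 1194, 1594 and 1694 CPM at 30 min (1.91 ± 0.27). TCH4 was also the brassinosteroid gene called higher above. AGP1 (AT5G64310, chr5:25721733-25722678), an arabinogalactan protein of the cell surface, had 831, 853 and 619.7 CPM at 10 min and 3262, 4317 and 6963 CPM at 30 min (2.66 ± 0.29). Its list had 5 of 54 called higher (9.26%) and 1 lower (1.85%), against 7.55% and 3.63% over all genes tested. These counts were 3 and 2 without replicate 3 at 30 min, and 3 and 4 on library sizes alone. CESA1, of cellulose synthesis, had 265, 277 and 276 CPM at 10 min and 264, 229.9 and 290.5 CPM at 30 min, which overlapped.

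Of 48 cell cycle genes, 4 were called lower (2 without replicate 2 at 30 min) and 2 higher, with a median log2 change of -0.34. In 14 members all 30-min libraries lay below all 10-min libraries, against 15.5% of all genes tested, and in 2 members above. CYCB1;1, a cyclin of mitosis, had 6.9, 6.26 and 5.84 CPM at 10 min and 3.67, 2.37 and 3.14 CPM at 30 min (-1.05 ± 0.26), a call lost without replicate 1 at 10 min or replicate 2 at 30 min, and ICK1, an inhibitor of the cycle, fell as well (-1.48 ± 0.31), so the genes called lower held members of opposite roles. Photosystem, light-harvesting and Rubisco small subunit genes had 4 of 59 called lower, 0 higher and a median of -0.41. In 19 of them all 30-min libraries lay below all 10-min libraries, against 15.5% of all genes tested, and in 0 above. CAB2 (AT1G29920, chr1:10474656-10475969) had 354, 268 and 226 CPM at 10 min and 52.5, 138 and 82.5 CPM at 30 min (log2 change -1.64 ± 0.32, adjusted p = 0.00191), and RBCS1A had 8512, 6969.8 and 6333 CPM at 10 min and 6337, 7031 and 6657 CPM at 30 min, which overlapped. Without replicate 3 at 30 min 2 of the 59 were called. Nuclear genes annotated as ribosomal proteins, cytosolic and organellar, held 0 calls in 265 tested, with a median of 0.13 that was -0.05 without replicate 3 at 30 min and -0.13 on library sizes alone; at an adjusted p of at most 0.05 with no limit on the fold, 5 were higher and 3 lower. The count called lower was 5 without replicate 1 at 30 min and 2 on library sizes alone. Clock genes had 1 of 22 called higher and 2 lower, and CCA1 had 2.18, 4.58 and 3.7 CPM at 10 min and 1.68, 0.331 and 3.36 CPM at 30 min, which overlapped.

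Genes that no list held made up 1718 of the 2112 called. AT1G26380 (chr1:9126737-9128568) and AT1G26420, berberine bridge enzyme-like oxidases of 1 gene cluster, had 7.3, 5.17 and 5.58 CPM at 10 min and 476, 477 and 701 CPM at 30 min and 0.991, 0.771 and 0.519 CPM at 10 min and 22.8, 18.3 and 49.6 CPM at 30 min (6.51 ± 0.35 and 5.26 ± 0.42). MC8, a metacaspase, had 0.595, 0.68 and 0.973 CPM at 10 min and 22.6, 19.99 and 22.4 CPM at 30 min (4.88 ± 0.24). At the other end, PKS2, which acts in the phototropin pathway, had a log2 change of -2.38, CIPK20, a kinase bound by calcium sensors, one of -2.58, and the DNA glycosylase family gene AT5G44680 one of -3.34. By product name, with no test, families of at least 40 tested genes differed widely. Over all genes tested 7.55% were called higher and 3.63% lower. The TIR-NBS-LRR family had 18 of 47 called higher (38.3%) and 0 lower. Genes named protein kinase superfamily had 42 of 227 higher (18.5%) and 7 lower (3.08%). The cysteine and histidine-rich C1 domain family had 13 of 77 higher (16.9%) and 1 lower (1.30%). The pentatricopeptide repeat superfamily, which acts on organelle RNA, had 10 of 160 called lower (6.25%) and 0 higher. Genes annotated as other RNA had 30 of 214 lower (14.0%) and 11 higher (5.14%).

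Replicate 3 at 30 min differed from its group in a set of genes that could be named. Against the mean of the other 30-min replicates on the log2(CPM + 1) scale, 764 genes were at least 1 higher in it and 655 at least 1 lower; the same counts were 417 and 244 for replicate 1 and 170 and 418 for replicate 2. Farthest above stood ADH1, the alcohol dehydrogenase of fermentation, with 54.2, 201 and 44.4 CPM at 10 min and 9.79, 13 and 1719.6 CPM at 30 min. FTM1, a stearoyl-ACP desaturase gene, had 71.7, 281 and 97.4 CPM at 10 min and 11.1, 9.88 and 712 CPM at 30 min, and CORI3, known from jasmonate-responsive tissue, 186, 208 and 131 CPM at 10 min and 138, 112 and 3442 CPM at 30 min. AT4G33560, a wound-responsive family gene, had 101, 298 and 105 CPM at 10 min and 8.01, 12.3 and 209.8 CPM at 30 min. In ADH1, FTM1 and AT4G33560, replicates 1 and 2 at 30 min lay below every 10-min library, replicate 2 at 10 min was the highest of its group, and replicate 3 at 30 min stood far above its own group. GPT2, a glucose-phosphate carrier of plastids, had 15.3, 54.9 and 27.1 CPM at 10 min and 84, 47 and 1019 CPM at 30 min; it was called (3.56 ± 1.14), with overlapping groups, and lost the call without that library and without any 1 of the 10-min libraries.

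Among the genes farthest below were AT5G33355 and AT3G59930, annotated as defensin-like, with 74.5, 68.7 and 5.24 and 85.9, 86.6 and 12.4 CPM at 30 min. AIR1, a lipid-transfer type protein, had 203, 209 and 30.2 CPM at 30 min, MLP328, of the major latex protein family, 276, 284 and 45.9, and TIP2;3, a tonoplast aquaporin listed here as a root marker, 83, 100.4 and 14.8. The 20 tested root markers had a mean log2(CPM + 1) of 2.96 in that library against 3.54 to 4.00 in the other wt libraries, and the 14 tested shoot markers one of 9.46 against 9.42 to 10.4. Over all root markers 1 was called higher and 2 lower, with a median log2 change of -0.10 that was 0.25 without replicate 3. Over the shoot markers 0 were called higher and 2 lower, with a median of -0.50 that was -0.45 without replicate 3. The 2 were CAB2 and CAB3, which the photosystem list counted as well. Most shoot markers are genes of photosynthesis, so they are not a separate reading from that list. All 30-min libraries lay below all 10-min libraries in 8 of the 14 shoot markers and 5 of the 20 root markers, against 15.5% of all genes tested. They lay above in 0 and 1. Of the tested markers of either organ, 0 were without a tag in a whole group. Whether the share of root in the pool has a part in the results was not tested.

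**Figure D5:**
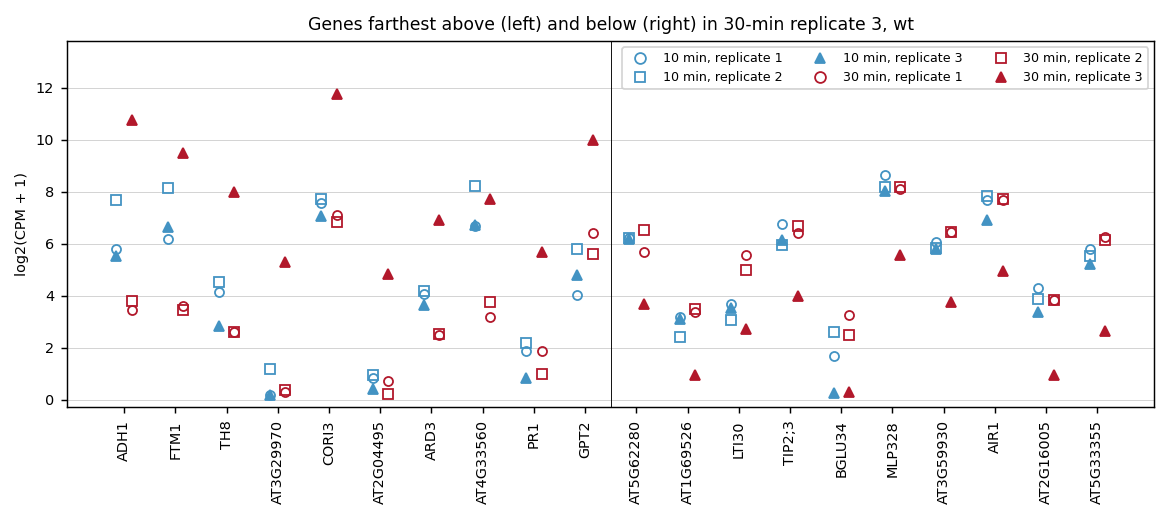
Level, as log2(CPM + 1), in each wt library of the 10 genes farthest above (left) and the 10 farthest below (right) in replicate 3 at 30 min against the mean of the other 30-min replicates, blue for 10 min and red for 30 min, with replicate 3 filled. The filled red triangle stands alone at the top or the bottom of the 30-min points in every gene, as the choice of genes fixes, for example at 1719.6 CPM in ADH1 and 5.24 CPM in AT5G33355.

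In several lists that rose, replicate 3 was also the highest 30-min library. It lay above the mean of the other 30-min replicates by 0.77 in the pattern receptors, 0.67 in the salicylic acid list, 0.64 in phenylpropanoid enzymes, 0.72 in small heat shock proteins and 0.61 in larger chaperones, and by 0.31 in 18 reference genes, but by only 0.05 in the MAP kinase list. The median log2(CPM + 1) difference from the 10-min mean over the genes called higher was 1.48 in replicate 1, 1.29 in replicate 2 and 1.72 in replicate 3, and over the genes called lower it was -0.93, -0.99 and -1.11. Of the 2112 genes called, 1660 were also called the same way without replicate 3, 2111 kept the sign, and 304 further genes were called only then. Of the reference genes, commonly used as constant, only UBQ10 was called, at 1.13 ± 0.17, and it lost the call without that library and on library sizes alone; ACT2 had 244, 249 and 235 CPM at 10 min and 283, 238 and 217 CPM at 30 min.

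The hen2-4 libraries, which share none with the wt comparison, gave a second reading of the same interval in a line with a T-DNA insertion in HEN2, an RNA helicase of the nuclear exosome. There 2135 genes were called (11.3%), of which 1002 were lower (5.31%). Of the wt calls, 1369 were called the same way in hen2-4, which is 64.8% of the wt calls and 64.1% of the hen2-4 calls, and 0 were called the opposite way. The test of the difference between both time changes called 0 genes (0.00%), with a smallest adjusted p of 0.103 by edgeR, and 1079 genes (5.72%) had an unadjusted p under 0.05. List by list, the median log2 change in hen2-4 was 1.64 for the larger chaperones, 1.76 for the small heat shock proteins, 0.45 for the WRKY genes, 0.92 for the pattern receptors and 0.30 for the salicylic acid list, and 27 of 48 SAUR genes were called lower and 1 higher, with a median of -1.56. For single genes the log2 changes in hen2-4 were 5.23 ± 0.27 for HSP70 (AT3G12580), 2.19 ± 0.26 for WRKY33, 3.48 ± 0.22 for CYP81F2 and -4.49 ± 0.58 for the SAUR gene AT4G38840. A missing call for the difference does not show that the lines responded alike.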

How the data were processed

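CAGE tags were counted by the authors, who mapped them with Bowtie 1.1.2 to TAIR10, kept tags that map once, grouped them into tag clusters and summed the clusters of each gene. The deposited gene table holds raw counts of 18934 genes; the deposited cluster counts gave only each gene's main start cluster. Tables of normalised values were not used, nor were 9 columns per table with no sample here.

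Genes were fitted with edgeR 4.0.16 (glmQLFit and glmQLFTest, TMM, R 4.3.3), with 1 coefficient per group over 5 groups of 3 libraries. filterByExpr removed 55 genes, and p-values were adjusted by Benjamini-Hochberg over 18879. SE is the log2 change divided by the root of F. The fit was tested on simulated data.

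Members and lists were chosen with earlier results of these data known. Named genes were each list's fixed sentinels and up to 4 called members per direction with the largest change and at least 5 CPM, up to 10 per direction in no list, and 10 per direction for replicate 3 at 30 min; PRE1 was named after its values were seen. Of the deposited genes, 18800 matched RefSeq, from which sequences came. Alternatives were library sizes alone, DESeq2 1.42.0, limma 3.58.1 voom, no filter, only the 6 wt libraries, a replicate block, other fold limits and leaving out each wt library.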

Additional observations from a re-analysis of the deposited data

How the results depend on the processing

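The direction held in each alternative fit for the 123 genes whose wt log2 change is given in the report, and 102 of the 117 of them that were called were called in every one of the fits. With no limit on the fold, 3766 genes passed (2308 higher, 1458 lower), and with glmTreat, which tests against the limit itself, 774 did (682 higher, 92 lower). On library sizes alone 1446 genes were called lower, as were 91 transcription factors against 56; that scaling lowers log2 changes by a median of 0.26 by its construction, and turned the sign of the median of 7 of the 44 lists. Leaving out 1 wt library at a time gave 1832 to 2440 calls. DESeq2 called 2248 genes, among them 99.01% of the 2112, limma voom 2060, and the fit of only the 6 wt libraries 1721. Calls of PAD3, ACS7, HSP18.2, GPT2 and EXPA8 were also lost with limma voom, and those of ACS7, HSP18.2, GPT2 and AT5G43740 in the fit of only the 6 wt libraries. On library sizes alone the counts called lower rose to 10 MYB, 14 AP2/ERF, 9 cell cycle, 7 photosystem, 5 abscisic acid, 3 jasmonate factor and 13 other auxin genes. At 3 libraries a group, genes of few tags have wide errors, as the SE of WRKY41 shows.

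Replicate numbers are shared by the groups but did not pair them: deviations of same-numbered libraries correlated at -0.28, -0.35 and -0.09, and no library correlated best with its own number. The fit with the replicate block called 1374 genes higher and 753 lower; PAD3, ACS7 and GPT2 lost the call in it.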
